A study of Mus musculus with 10 samples.

Results

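The genes described are 10 genes of the major histocompatibility complex (MHC) antigen presentation pathways, out of 55536 genes counted in the 1-year Snx14-KO brain. They were chosen by name for their role, at a time when earlier results of these data were known. They were 6 class I genes (H2-K1, H2-D1, B2m, Tap1, Psmb8 and Nlrc5) and 4 class II genes (H2-Aa, H2-Ab1, H2-Eb1 and Cd74). All 10 were present in the table of every library.

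Snx14 encodes a sorting nexin that sits in the membrane of the endoplasmic reticulum, where lipids are stored and exchanged. RNA was sequenced from whole cerebellum and whole cerebral cortex of 5 mice aged 1 year, each of which gave both tissues, for 10 libraries in all. The KO group was 2 mice homozygous for a frameshift deletion in Snx14, carried in every tissue on a C57BL/6J background, and the control group joined controls 1 and 2, both Het, with control 3, which was WT. The comparisons ask whether antigen presentation transcripts differ between KO and control in the cerebellum, which degenerates in this model, and in the cortex, and whether class I and class II genes do so alike.

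Values are CPM, the counts of a gene relative to the gene counts of its library with TMM factors over the 10 libraries, which held between 16088310 and 22975355 gene counts. Snx14 itself was at 14.8 to 17.4 CPM in the KO libraries and at 34.3 to 73.3 CPM in the control libraries, highest in the WT mouse in each tissue. The granule cell markers summed to at least 4111 CPM in every cerebellum library and to at most 46.8 CPM in every cortex library, so the tissues matched their labels. Xist was at 800 CPM or more in control 1, control 3 and KO 1 and at 3.19 CPM or less in control 2 and KO 2, which instead held Y-linked transcripts. Choroid plexus markers, which depend on what was dissected, summed to 60.7 CPM in the KO 1 cerebellum and to between 1204 and 3416 CPM in the other cerebella. The cortex of control 2 stood apart from those of controls 1 and 3. Chi-square per degree of freedom over genes was 29.9 and 31.7 against them and 5.12 between them, cortical excitatory neuron markers summed to 2998 CPM against 5560 and 5223 CPM, and oligodendrocyte markers to 8710 CPM against 4715 and 4813 CPM.

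Class I molecules present peptides from inside the cell to CD8 T cells and are made by most cell types, although neurons make little of them. H2-K1 and H2-D1 are the classical heavy chains of the H2-b haplotype, B2m is the light chain they share, Tap1 is a subunit of the transporter that carries peptides into the endoplasmic reticulum, Psmb8 is a catalytic subunit of the immunoproteasome, and Nlrc5 is the transactivator of class I genes. Class II molecules present peptides from endosomes to CD4 T cells and are made by professional antigen presenting cells, in the brain mainly by macrophages at its borders and by some reactive microglia. H2-Aa and H2-Ab1 are the chains of I-A, H2-Eb1 is the beta chain of I-E, and Cd74 is the invariant chain that guards the class II groove. C57BL/6 mice do not make the I-E alpha chain, so H2-Eb1 protein has no usual partner in this strain.

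The promoters of these genes are a textbook case of a shared control element, in which an X2 box bound by CREB family factors lies a fixed distance from a Y box bound by NF-Y, and the class I heavy chains add an NF-kappa B site. The 250 bases upstream of the start were searched in RefSeq promoters (GRCm38.p6), which held 7 of the 10 genes. H2-Ab1, Nlrc5 and Cd74 were not in the table. The motifs, searched on both strands, were the Y box (CCAAT), the core of the X2 box (TGACG), the interferon-stimulated response element, the gamma-activated site (TTCNNNGAA) and kappa B. The X2 core, 20 or 21 bases and the Y box in the order ATTGG occurred in 4 of the 7 genes and in 0.149% of 32851 promoter windows, a spacing read from these genes. Below are these stretches in H2-K1, H2-D1 and B2m of class I and in H2-Aa of class II, 5′ to 3′ on the strand of the gene, with the X2 core and the Y box in capitals:
H2-K1: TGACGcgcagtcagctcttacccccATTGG
H2-D1: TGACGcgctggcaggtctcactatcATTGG
B2m: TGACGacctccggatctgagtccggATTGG
H2-Aa: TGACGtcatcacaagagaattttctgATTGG

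They lie at chr17:34000359-34000388 (minus strand), chr17:35262993-35263022 (plus strand), chr2:122147609-122147638 (plus strand) and chr17:34287867-34287897 (minus strand). In GENCODE M21 the H2-D1 stretch falls within the first exon of a longer H2-D1 transcript. Below are the full upstream windows of a class I chain, of an I-A chain and of the I-E beta chain, the gene that was called in a KO comparison, with every motif match in capitals:
H2-K1 (chr17:34000348-34000597, minus strand): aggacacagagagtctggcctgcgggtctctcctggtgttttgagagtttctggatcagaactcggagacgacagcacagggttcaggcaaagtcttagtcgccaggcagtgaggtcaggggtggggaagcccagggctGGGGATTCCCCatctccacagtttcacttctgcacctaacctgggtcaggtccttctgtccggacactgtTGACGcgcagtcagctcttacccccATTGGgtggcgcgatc
H2-Aa (chr17:34287824-34288073, minus strand): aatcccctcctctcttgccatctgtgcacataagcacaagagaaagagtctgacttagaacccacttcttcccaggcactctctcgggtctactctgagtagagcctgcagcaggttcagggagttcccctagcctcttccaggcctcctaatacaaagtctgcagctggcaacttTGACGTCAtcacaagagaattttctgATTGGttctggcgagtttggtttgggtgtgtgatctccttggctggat
H2-Eb1 (chr17:34305617-34305866, plus strand): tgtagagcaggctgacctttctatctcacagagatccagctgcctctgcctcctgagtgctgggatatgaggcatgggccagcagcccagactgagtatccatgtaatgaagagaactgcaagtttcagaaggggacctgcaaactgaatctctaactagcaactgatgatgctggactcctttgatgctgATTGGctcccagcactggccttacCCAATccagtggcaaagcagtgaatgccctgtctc

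The Y box was found in 6 of the 7 genes (33.8% of all windows) and the X2 core in 5 (17.8%). Kappa B was found in H2-K1 and H2-D1 and in 0.0457% of all windows, and these promoters were 91% identical over 177 aligned bases. The response element was found in B2m (2.98% of windows) and the gamma-activated site in Psmb8 (7.02%). In the H2-Eb1 window 2 Y boxes and no TGACG were found. A match is a description of the letters only.

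Read counts of MHC genes can be shared between near-identical copies. Of all stretches of 150 bases in the transcripts of H2-D1, 1.35% were identical to a stretch of H2-Q1, and for the other 9 genes 0% were shared with another gene. Exonic bases overlapped another gene for Psmb8 (14.7%), Tap1 (3.87%), Nlrc5 (0.918%) and Cd74 (0.715%) and for 0% of the other 6.

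**Figure D1:**
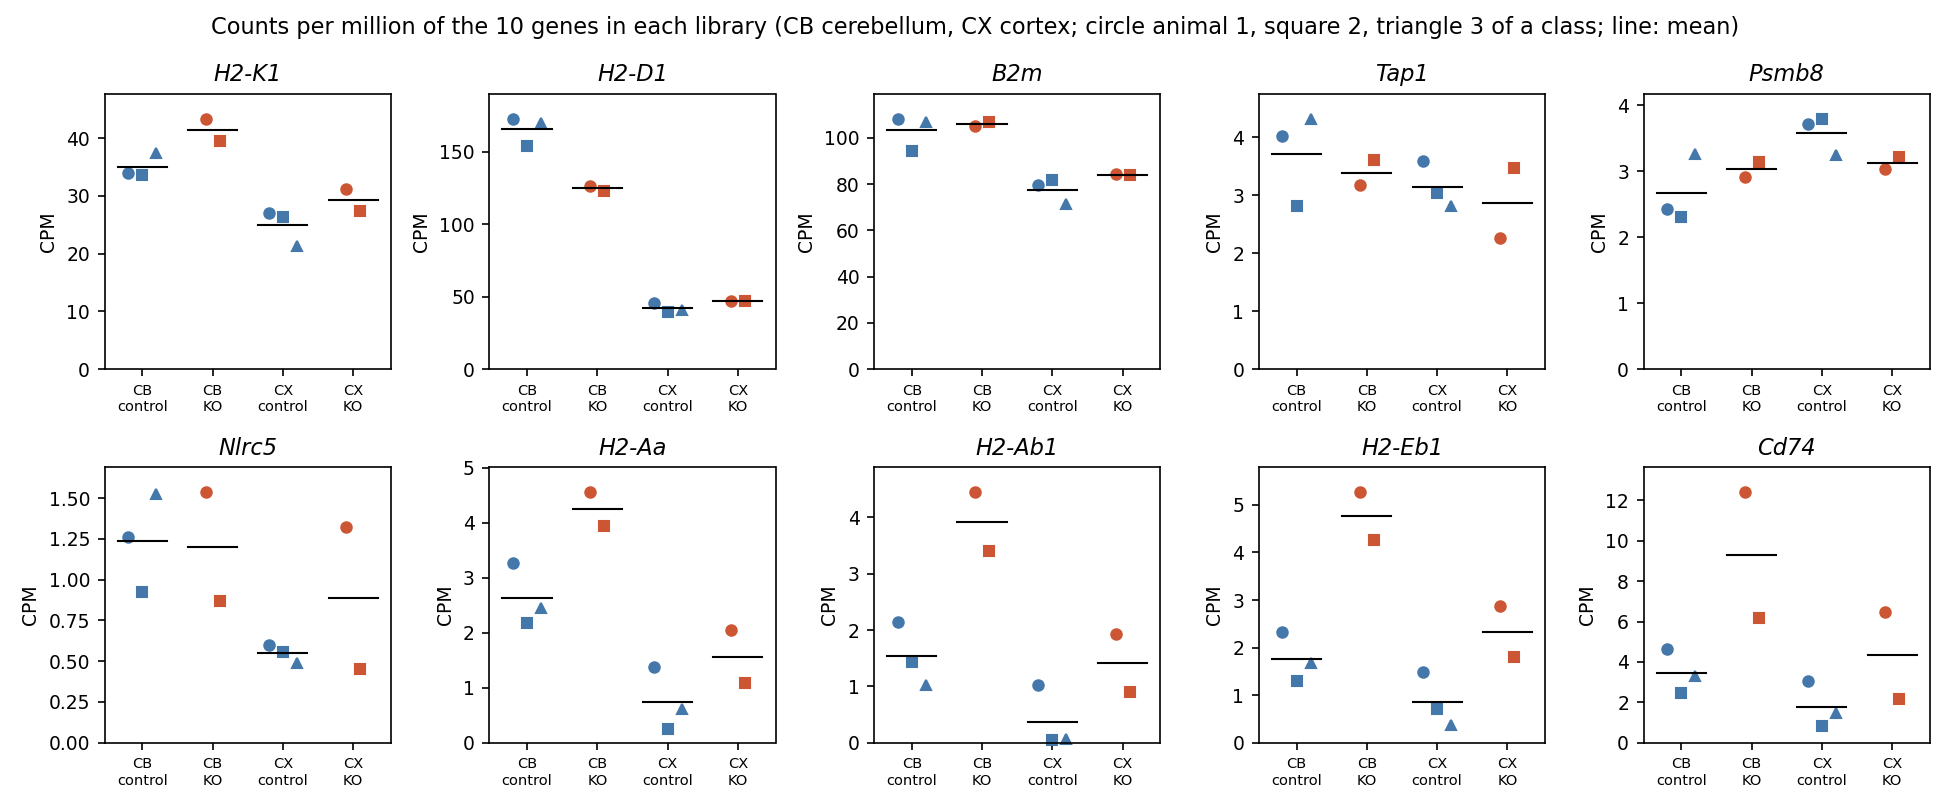
CPM of each gene in each library, with cerebellum (CB) and cortex (CX) controls in blue, KO mice in orange, a symbol for each animal and a line at the mean. The class II genes stand higher in both KO cerebella than in the 3 control cerebella, H2-D1 stands lower, and B2m, Tap1, Psmb8 and Nlrc5 overlap.

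In cerebellum the class II genes were the members with the larger KO differences. All 4 stood higher in both KO cerebella than in the 3 controls, by 1.60-fold (H2-Aa) to 2.67-fold (H2-Eb1), and H2-Eb1 passed the test. None of the 6 class I genes was called, and H2-D1, the most abundant heavy chain, was lower in both KO cerebella by less than the fold threshold. A call here means that edgeR's quasi-likelihood test gave an adjusted p (Benjamini-Hochberg) below 0.05 together with an absolute log2 fold change above 0.5. By that rule 1 of the 10 genes was called, against 1.55% of the 19447 genes tested (0.514% higher and 1.04% lower).

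H2-Eb1 (ENSMUSG00000060586.11, chr17:34305867-34316674, plus strand) was at 2.33, 1.30 and 1.68 CPM in the cerebella of controls 1, 2 and 3 and at 5.27 and 4.26 CPM in KO 1 and KO 2. The lower KO library was above the highest control. The mean was 1.77 ± 0.526 CPM (SD, n = 3) in control and 4.77 ± 0.713 CPM (SD, n = 2) in KO cerebella, and H2-Eb1 rose by 1.42 on the log2 scale (SE 0.266, edgeR adjusted p 0.0356). The values rest on 28 to 103 counts per library. The call was lost in 4 of the 5 fits that left out 1 library, where the edgeR adjusted p was 0.0580 without control 1, 0.143 without control 3, 0.184 without KO 1 and 0.0797 without KO 2, and it held without control 2 (0.0486). It was also lost in 1 fit of all 10 libraries (0.129).

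H2-Ab1 (ENSMUSG00000073421.6, chr17:34257689-34269419, plus strand) was at 2.15, 1.43 and 1.02 CPM in the control cerebella and at 4.45 and 3.39 CPM in the KO cerebella. Again both KO libraries were above all controls. The log2 difference was 1.33 (SE 0.310, edgeR adjusted p 0.0800), which did not pass.

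Cd74 (ENSMUSG00000024610.15, chr18:60803848-60812652, plus strand) was at 4.62, 2.45 and 3.31 CPM in the control cerebella and at 12.4 and 6.17 CPM in the KO cerebella. The KO mice did not overlap the controls, and KO 1 stood well above KO 2. The log2 difference was 1.41 (SE 0.331, edgeR adjusted p 0.0830), and it was 1.83 without KO 2 (adjusted p 0.0296) and 0.83 without KO 1 (adjusted p 0.382).

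H2-Aa (ENSMUSG00000036594.15, chr17:34282744-34287823, minus strand) was at 3.27, 2.17 and 2.44 CPM in the control cerebella and at 4.56 and 3.93 CPM in the KO cerebella. The groups did not overlap, and the difference was the smallest of the class II genes. Its log2 value was 0.68 (SE 0.229, edgeR adjusted p 0.233). DESeq2, which the study used, called 3 of the 4 class II genes: H2-Eb1 (adjusted p 0.00442), Cd74 (0.00304) and H2-Ab1 (0.0319), but not H2-Aa (0.407). It called 0.963% of its 18165 genes higher.

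The class I heavy chains differed from each other. H2-D1 (ENSMUSG00000073411.11, chr17:35262730-35267499, plus strand) was at 173, 154 and 170 CPM in the control cerebella and at 126 and 123 CPM in the KO cerebella. Both KO libraries were below every control. KO and control differed by -0.42 on the log2 scale (SE 0.0684, edgeR adjusted p 0.0185), past the adjusted p threshold, as were 1.41% of all genes in this direction, and short of the fold threshold. The adjusted p lay between 0.103 and 0.119 without control 1, control 3, KO 1 or KO 2, and was 0.00363 without control 2.

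H2-K1 (ENSMUSG00000061232.16, chr17:33996017-34000347, minus strand) was at 33.9, 33.6 and 37.5 CPM in the control cerebella and at 43.4 and 39.4 CPM in the KO cerebella. It stood on the other side of the controls from H2-D1, with no overlap. Its log2 difference was 0.23 (SE 0.0885, edgeR adjusted p 0.295) and did not pass. The ratio of H2-D1 to H2-K1 per exon length was 5.397 ± 0.353 (SD, n = 3) in control cerebella and 3.44 ± 0.171 (SD, n = 2) in KO cerebella, with no overlap between the groups.

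B2m (ENSMUSG00000060802.8, chr2:122147686-122153083, plus strand) was at 108, 94.5 and 107 CPM in the control cerebella and at 105 and 107 CPM in the KO cerebella. The KO values lay within the range of the controls. On the log2 scale the difference was 0.03 (SE 0.0722, edgeR adjusted p 0.914). With a lower H2-D1 and a like B2m, the ratio of B2m to the sum of H2-K1 and H2-D1 per exon length was 1.58 ± 0.0307 (SD, n = 3) in control and 1.98 ± 0.0793 (SD, n = 2) in KO cerebella.

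Tap1, Psmb8 and Nlrc5 were low, and KO and control cerebella overlapped for each of them. Tap1 (ENSMUSG00000037321.17, chr17:34187553-34197225, plus strand) was at 4.02, 2.82 and 4.32 CPM in the controls and, in the KO mice, at 3.18 and 3.6003 CPM, a log2 difference of -0.13 (SE 0.233, edgeR adjusted p 0.882). Psmb8 (ENSMUSG00000024338.15, chr17:34197721-34201454, plus strand) was at 2.43, 2.31 and 3.25 CPM and at 2.91 and 3.15 CPM, a log2 difference of 0.18 (SE 0.230, adjusted p 0.826). Nlrc5 (ENSMUSG00000074151.13, chr8:94434356-94527272, plus strand) was at 1.26, 0.925 and 1.53 CPM and at 1.54 and 0.869 CPM, a log2 difference of -0.07 (SE 0.369, adjusted p 0.966). With 20 to 87 counts per library for these 3 genes, small differences were not detectable at this depth.

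Across the members, 5 stood higher in both KO cerebella than in all controls (H2-K1 and the 4 class II genes), and 1, H2-D1, stood lower. Among all genes tested in cerebellum, 15.4% stood higher and 14.6% lower in this way. The median log2 difference was -0.02 over the 6 class I genes and 1.37 over the 4 class II genes, and 0.000899 over all genes.

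**Figure D2:**
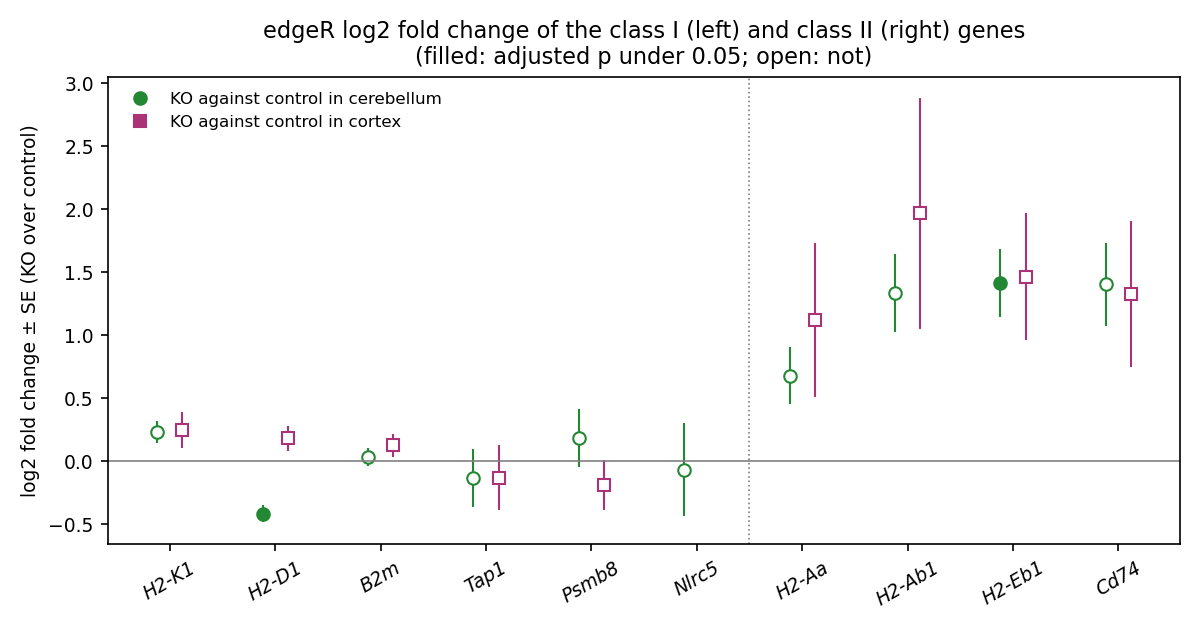
log2 fold change of KO over control for each gene, with its SE, in cerebellum (green circles) and cortex (purple squares). Filled symbols passed an adjusted p of 0.05, which was so for H2-D1 and H2-Eb1 in cerebellum, while the class II genes (right of the dotted line) lie between 0.68 and 1.97 in both tissues.

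In cortex no gene was called. The 4 class II genes nevertheless had differences of the size seen in cerebellum, 1.12 to 1.97 on the log2 scale, at lower counts and with wider errors. Of the members tested, 0 of 9 were called, as were 0% of the 19202 genes tested by edgeR, 1139 of which (5.93%) had an unadjusted p under 0.05. Snx14 itself, at 34.3, 34.9 and 50.8 CPM in control and at 14.8 and 16.1 CPM in KO cortices, was thus not called either. The lack of a call in cortex therefore does not show that a gene was unchanged. DESeq2 called 49 genes (0.273%), none of them a member.

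H2-Eb1 was at 1.496, 0.709 and 0.368 CPM in the cortices of controls 1, 2 and 3 and at 2.87 and 1.80 CPM in KO 1 and KO 2. It was the only class II gene whose KO and control cortices did not overlap. The log2 difference was 1.46 (SE 0.505, edgeR adjusted p 0.792, unadjusted p 0.0209 in the fit across all genes).

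Cd74 was at 3.05, 0.810 and 1.47 CPM in the control cortices and at 6.46 and 2.18 CPM in the KO cortices. H2-Aa was at 1.38, 0.253 and 0.613 CPM and at 2.04 and 1.09 CPM. H2-Ab1 was at 1.02, 0.0506 and 0.0613 CPM and at 1.93 and 0.899 CPM, where controls 2 and 3 held 1 count each. In all 3 genes control 1 was the highest control and lay above KO 2, and KO 1 was the highest library. The log2 differences were 1.33 (SE 0.581) for Cd74, 1.12 (SE 0.610) for H2-Aa and 1.97 (SE 0.916) for H2-Ab1, with edgeR adjusted p-values of 0.852, 0.885 and 0.866. Without the cortex of control 2, which stood apart, they were 0.97 for Cd74, 0.68 for H2-Aa and 1.41 for H2-Ab1, and that of H2-Eb1 was 1.34, with adjusted p-values from 0.282 to 0.651.

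The class I genes had smaller differences in cortex, from -0.19 to 0.25 on the log2 scale. H2-D1 was at 46.0, 39.6 and 40.8 CPM in control cortices and at 47.4 and 47.2 CPM in KO cortices, so that here both KO libraries lay above every control. The log2 difference was 0.18 (SE 0.100, edgeR adjusted p 0.886). H2-K1 was at 27.1, 26.4 and 21.3 CPM and at 31.2 and 27.4 CPM, and B2m at 79.6, 81.9 and 71.5 CPM and at 84.2 and 83.9 CPM. Both were without overlap, and the log2 differences of 0.25 (SE 0.143) and 0.13 (SE 0.0929) did not pass. Psmb8 was at 3.71, 3.80 and 3.25 CPM in control cortices and at 3.04 and 3.21 CPM in KO cortices (log2 difference -0.19, SE 0.201). Tap1 was at 3.59, 3.04 and 2.82 CPM and at 2.26 and 3.47 CPM (log2 difference -0.13, SE 0.258). Nlrc5, with 7 to 24 counts per library, was under the count filter in cortex and was not tested. It was at 0.598, 0.557 and 0.490 CPM in control cortices and at 1.32 and 0.4496 CPM in KO cortices, on both sides of the controls.

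In cortex 4 members stood higher in both KO libraries than in all controls (H2-K1, H2-D1, B2m and H2-Eb1) and 1 lower (Psmb8), while over all genes tested 10.6% stood higher and 14.1% lower. The order of the libraries for class II was alike in both tissues of a mouse, with KO 1 highest in each, control 1 the highest control, and control 2 or 3 the lowest. Control 2 and KO 2 were the male mice by Xist and Y-linked transcripts. Set against controls of the same sex alone, each KO mouse was higher in both tissues for H2-K1 and the 4 class II genes, 5 of the 10 genes, against 5.22% of the 18111 genes tested in both tissues. For KO 2 the only such control was control 2, whose cortex stood apart. Control 1, which lay above KO 2 in cortex for Cd74, H2-Aa and H2-Ab1, was not set against it. The 4 class II genes varied together across the libraries, so they do not count as separate results.

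The KO differences in the tissues were compared with each other directly. None of the 10 genes passed the test of the difference, as 0.102% of the 20614 genes tested did. For the class II genes the difference between tissues was -0.42 (H2-Aa), -0.61 (H2-Ab1), -0.03 (H2-Eb1) and 0.10 (Cd74) on the log2 scale, with SEs from 0.538 to 1.00. With errors of this size a difference of 1 log2 unit between the tissues was not detectable. For H2-D1, lower in KO cerebella and higher in KO cortices, the difference was -0.58 (SE 0.116, unadjusted p 0.000457 in the fit across all genes, edgeR adjusted p 0.126). When the fit paired the tissues of each mouse, with the animal as a block, the difference was -0.58 (SE 0.105, adjusted p 0.0386), and H2-D1 passed along with 0.621% of all genes. DESeq2 without the block gave an adjusted p of 0.00581, where 1.15% of its genes passed.

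The tissues were also compared within the control mice. There, cerebellum had 3.92-fold the H2-D1 of cortex, 3.56-fold the H2-Aa and 2.22-fold the Nlrc5, and these 3 of the 10 genes were called, against 40.5% of 19416 genes tested (19.1% higher in cerebellum). The lowest control cerebellum was above the highest control cortex for 5 of the 10 genes (H2-K1, H2-D1, B2m, Nlrc5 and H2-Aa), against 31.6% of all genes, so that these shares were not far from the background of this comparison.

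H2-D1 was at 42.1 ± 3.38 CPM in control cortex and at 166 ± 10.03 CPM in control cerebellum (SD, n = 3 each), a log2 difference of 1.97 (SE 0.0892, edgeR adjusted p 4.27e-07). H2-K1 had a log2 difference of 0.48 (SE 0.112, adjusted p 0.00602) and B2m of 0.41 (SE 0.0871, adjusted p 0.00417), both past the adjusted p, as were 26.5% of all genes in this direction, and just short of the fold threshold. The heavy chains thus differed in how far they stood apart between tissues: H2-D1 to H2-K1 per exon length was 5.397 in control cerebellum and 1.94 ± 0.236 (SD, n = 3) in control cortex, where the KO ratio was 1.85 ± 0.163 (SD, n = 2). Tap1 (log2 difference 0.23, adjusted p 0.406) and Psmb8 (-0.44, adjusted p 0.107) did not pass.

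Nlrc5 had a log2 difference of 1.15 (SE 0.320, edgeR adjusted p 0.0145), which was lost with DESeq2 (0.0598), without cerebellum control 3 (0.0574) and without cortex control 3 (0.0529). H2-Aa had a log2 difference of 1.83 (SE 0.471, edgeR adjusted p 0.0103). H2-Ab1 (2.05, SE 0.775), H2-Eb1 (1.04, SE 0.455) and Cd74 (0.97, SE 0.440) had edgeR adjusted p-values of 0.0517, 0.0847 and 0.0940. With the tissues of a mouse paired by a block for the animal, these 3 passed as well, with log2 differences of 2.23, 1.08 and 1.04 and adjusted p-values of 0.00639, 0.0227 and 0.00612, and 42.1% of all genes were then called. Without cortex control 1, whose class II genes were the highest of the control cortices, the unpaired H2-Ab1 difference was 4.63 (adjusted p 0.00116), and those of H2-Eb1 and Cd74 were 1.66 and 1.60 (adjusted p 0.0166 and 0.0127).

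Levels were compared between genes as CPM per kilobase of exon. In control cerebellum the order was B2m (120 ± 8.85), H2-D1 (64.2 ± 3.89), H2-K1 (11.9 ± 0.731) and Cd74 (2.06 ± 0.652), each clear of its neighbours (SD, n = 3). H2-Eb1 (0.910), Psmb8 (0.788), H2-Aa (0.692), Tap1 (0.679) and H2-Ab1 (0.597) followed, and neighbours in this run overlapped between libraries. Nlrc5 was the lowest at 0.146 ± 0.0354. In control cortex B2m (90.3 ± 6.31), H2-D1 (16.3 ± 1.31) and H2-K1 (8.48 ± 1.08) led in the same order without overlap, and the other 7 genes, from Psmb8 (1.06) to Nlrc5 (0.0646), each overlapped the next.

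The class I chains H2-K1 and H2-D1 summed to 78.5, 71.2 and 78.6 CPM per kilobase in the control cerebella and to 63.7 and 61.2 in the KO cerebella. The class II chains H2-Aa, H2-Ab1 and H2-Eb1 summed to 2.90, 1.80 and 1.90 in the control cerebella and to 5.64 and 4.55 in the KO cerebella. The class I sum was thus lower and the class II sum higher in both KO mice than in any control.

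In the cortices the class I chains summed to 27.1, 24.3 and 23.04 CPM per kilobase in controls and to 29.0 and 27.6 in KO mice, and the class II chains to 1.53, 0.451 and 0.374 and to 2.77 and 1.56. The ratio of class I to class II was 36.0 ± 7.79 (SD, n = 3) in control and 12.4 ± 1.53 (SD, n = 2) in KO cerebellum. It was 44.4 ± 23.4 (SD, n = 3) in control and 14.1 ± 5.10 (SD, n = 2) in KO cortex. No test was run on the ratio. In cerebellum the lowest control ratio was 27.1 and the highest KO ratio 13.4, and in cortex control 1 (17.70) and KO 2 (17.69) were level.

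**Figure D3:**
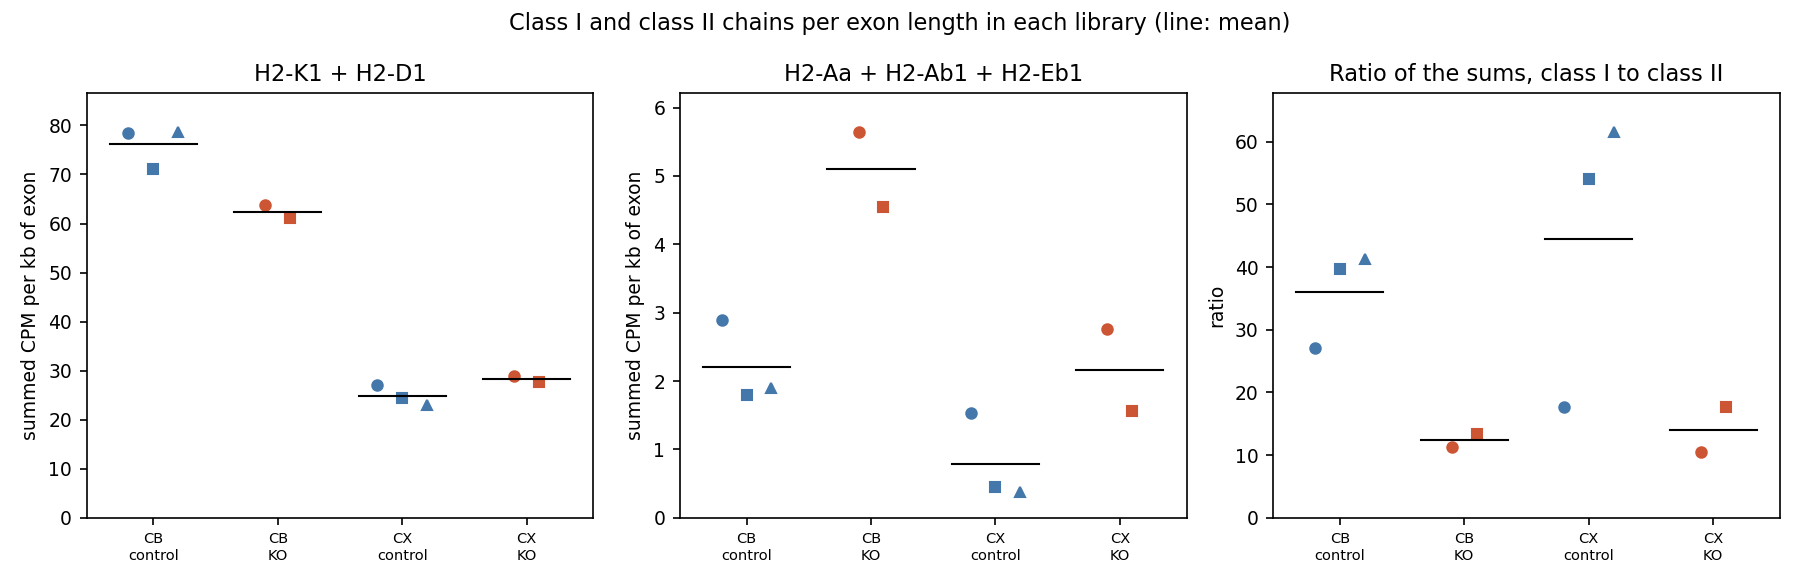
Summed CPM per kilobase of exon of the class I chains (left) and the class II chains (middle), and their ratio (right), in each library, with a line at the mean. The ratio is 11.3 and 13.4 in KO cerebella against 27.1 to 41.4 in control cerebella, while in cortex KO 2 and control 1 meet.

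Class II genes varied alike across the libraries, and class I genes less so. After each gene was centred on its tissue mean (log2 CPM), the 6 pairs of class II genes correlated over the 10 libraries with Pearson r from 0.81 to 0.94. The 15 pairs of class I genes had r from -0.40 to 0.72 and a median of 0.29. Of the class I genes H2-K1 was the most like class II, with r = 0.90 to H2-Eb1. Centring on the tissue mean left the KO difference in each profile, so these r values include the KO differences given above. The points share their libraries, and the values are given as a description.

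Over the same 10 libraries, the genes most like the mean profile of the 3 class II chains and Cd74, among 16142 genes, were Elf2 (r = 0.98), G630022F23Rik (0.96), Tle6 (0.95), Slc27a1 (0.94) and Ripk1 (0.94). The 5 most like the mean profile of H2-K1, H2-D1 and B2m were Yes1 (r = 0.93), Cavin2 (0.92), Slco1a4 (0.90), Emcn (0.89) and Vegfa (0.89). Slco1a4, Emcn and Cavin2 are known from blood vessel endothelium. The genes of this second profile did not all vary together. Pearson r was -0.16 for H2-K1 with H2-D1, 0.19 for H2-D1 with B2m and 0.72 for H2-K1 with B2m. The genes named for each profile have the highest r among 16142 genes, and are given as a description.

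Other genes of the pathways were taken from 7 lists of 74 genes in all, of which 72 matched the annotation. In the KO comparisons 0 were called of the 57 tested in cerebellum and of the 57 tested in cortex, and the median log2 difference was 0.11 and 0.00794, against 0.000899 and 0.00122 over all genes. The test of the difference between tissues called 0 of 59.

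Ctss, the cysteine protease that trims the invariant chain in endosomes, came nearest. It was at 45.1, 49.4 and 53.2 CPM in the control cerebella and at 68.8 and 63.98 CPM in the KO cerebella, without overlap. The log2 difference was 0.42 (SE 0.0851, edgeR adjusted p 0.0467), past the adjusted p and short of the fold threshold, and in cortex it was -0.14 (adjusted p 0.901). Without any single cerebellum library the adjusted p was between 0.0637 and 0.235, so Ctss then no longer passed. The most abundant of the other class II processing genes, Lgmn and Ctsl, are also endosomal proteases and were not called.

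Ciita, the transactivator on which class II transcription depends, was at 2.94, 2.41 and 2.85 CPM in the control cerebella and at 3.13 and 2.94 CPM in the KO cerebella, a log2 difference of 0.14 (SE 0.206, edgeR adjusted p 0.853). In cortex it was at 2.93, 2.53 and 2.33 CPM in controls and at 4.25 and 4.30 CPM in KO mice. The KO cortices did not overlap the controls there, and the log2 difference of 0.73 (SE 0.205, edgeR adjusted p 0.754) did not pass.

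Of the list of class I peptide supply and loading, 0 of 11 genes were called in either tissue, and Calr, Canx and Pdia3, chaperones of the endoplasmic reticulum, were the most abundant per exon length. The list medians were 0.03 in cerebellum and -0.00369 in cortex. The other class I and class I-like chains, led by Fcgrt, H2-T22 and H2-T23 in level per exon length averaged over both tissues, had 0 of 15 called in either tissue. Among them H2-Q6 and H2-Q7 share 5.99% and 5.90% of their stretches with other H2-Q genes, so their counts cannot be fully told apart.

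Of the transcription factors of MHC genes 0 of 11 were called in either tissue, with medians of -0.01 and 0.05. Nfyc, Rfxap and Nfyb were the most abundant of them per exon length, and Nfyc and Nfyb encode subunits of NF-Y, which binds the Y box. Ifng, the cytokine that induces both classes, had 0 counts in all 10 libraries, which allows up to 0.131 to 0.186 CPM per library at 3 counts. Its receptor gene Ifngr2 was lower in both KO cerebella than in all controls, with a log2 difference of -0.44 (SE 0.0976, edgeR adjusted p 0.0678), which did not pass. It was lower in both KO cortices as well, at 37.3, 38.0 and 38.5 CPM in control and 31.8 and 35.8 CPM in KO mice (log2 difference -0.15, edgeR adjusted p 0.886). The co-stimulation list had 0 of 4 called in each tissue, and the class I receptor list 0 of 3 in cerebellum and 0 of 2 in cortex. H2-Ea-ps, the I-E alpha pseudogene, was at 0.0414 CPM in 1 library and at 0 in the other 9.

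**Figure D4:**
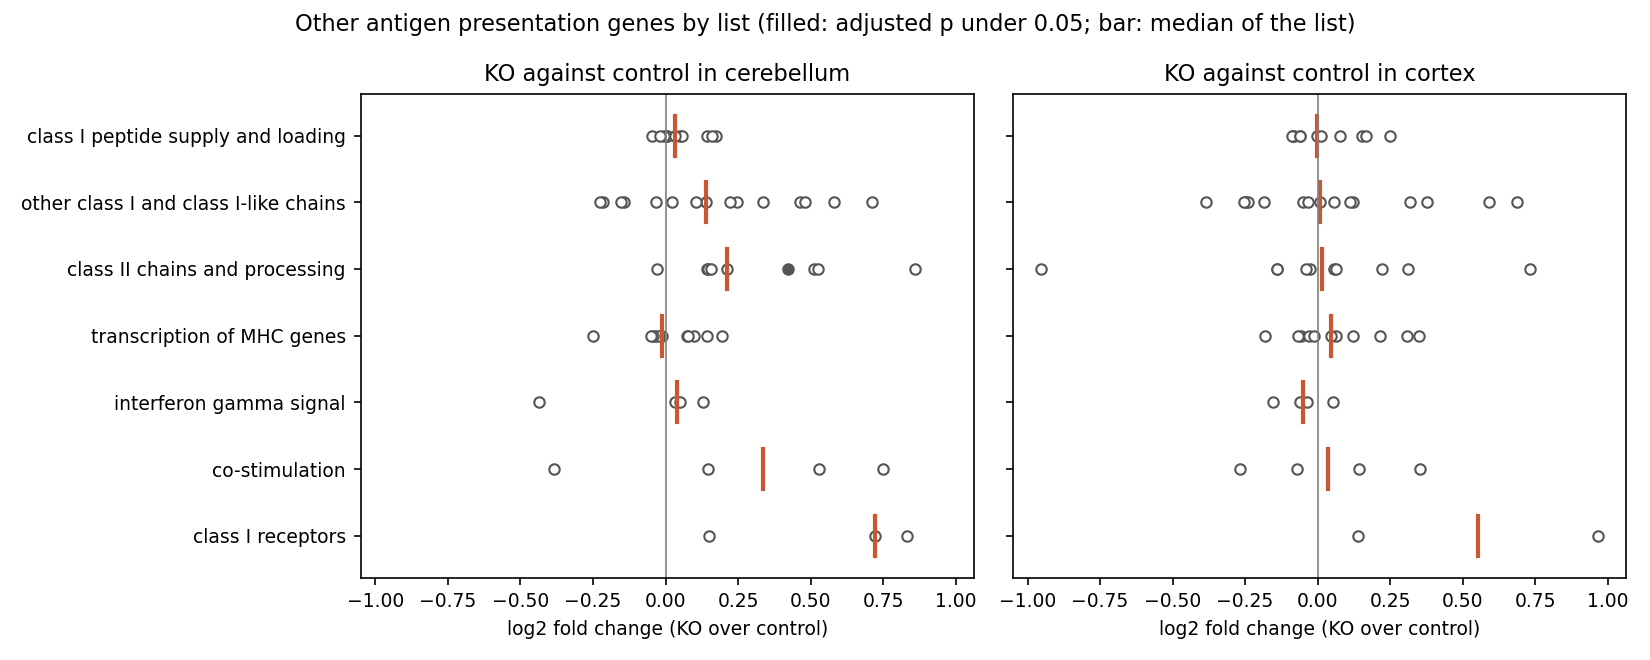
log2 fold change of KO over control for the other antigen presentation genes that were tested, by list, in cerebellum (left) and cortex (right). Ctss in cerebellum is the only filled point (adjusted p under 0.05), and the orange bars mark list medians from -0.01 to 0.72 in cerebellum.

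Between control tissues 28 of 59 pathway genes were called, 16 higher and 12 lower in cerebellum, against 40.5% of all genes. Tap2, the partner of Tap1 in the transporter, was higher in cerebellum by 0.64 on the log2 scale, while the immunoproteasome subunit Psmb10 and H2-T23, which encodes Qa-1, were lower (log2 differences -1.29 and -1.41). March1, a ubiquitin ligase that removes class II from the surface, was lower there (-2.56).

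The tissue was whole, so a smaller number of cells of a type and less RNA in each cell cannot be told apart. Markers of cells that can carry class II are given here beside the class II values, and their part in the differences was not tested. Of 14 markers of activated microglia 3 were called higher in KO cerebella, Lyz2, Spp1 and Apoe, and the summed level was 1986 to 2116 CPM in controls and 2999.7 to 3270 CPM in KO mice. Lyz2 was at 11.3, 11.01 and 12.3 CPM in control and at 30.5 and 29.6 CPM in KO cerebella. Spp1 was at 18.8, 19.9 and 20.9 CPM in control and at 31.5 and 58.5 CPM in KO cerebella. Most of the summed level thus came from other, more abundant genes of the list, and whether microglia made them was not tested. Of 11 markers of homeostatic microglia 1 was called, Fcrls, and the sum was 171 to 195 CPM in controls and 223 to 247 CPM in KO cerebella.

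In cortex the sums of both microglia lists overlapped between the groups, at 1886 to 2248 CPM and 2107 to 2277 CPM for activated microglia and 426 to 478 CPM and 430 to 481 CPM for homeostatic microglia. Of the 14 and 11 markers on these lists, Lyz2, Fcrls, Axl and Cst7 stood higher and Lpl lower in both KO cortices than in all controls, and none was called. Over all genes tested in cortex, 10.6% stood higher and 14.1% lower in this way. Fcrls was at 25.6, 21.1 and 20.4 CPM in control and at 28.5 and 28.9 CPM in KO cortices (log2 difference 0.37, edgeR adjusted p 0.796). Lyz2 was at 8.26, 8.71 and 7.60 CPM in control and at 15.8 and 14.5 CPM in KO cortices (log2 difference 0.90, edgeR adjusted p 0.754, DESeq2 adjusted p 0.00911). Homeostatic microglia markers were lower in control cerebellum than in control cortex for 11 of 11 genes, all called, where 21.5% of all genes were called lower. Of the 4 class II genes 1, H2-Aa, was called higher in cerebellum in the same test, where 19.1% of all genes were called higher. H2-Ab1, H2-Eb1 and Cd74 passed there only in the fit paired by animal or without cortex control 1, as given above for the control tissues.

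Border macrophage markers summed to 13.8, 4.63 and 9.51 CPM in the cerebella of controls 1, 2 and 3 and to 14.8 and 13.5 CPM in KO 1 and KO 2. In the cortices they summed to 10.6, 4.76 and 5.88 CPM and to 8.004 and 10.7 CPM. Control 1 was the highest control in each tissue, as for class II, and it overlapped the KO mice. Of the 7 markers 0 were called, and Mrc1, the macrophage mannose receptor, had a log2 difference of 0.99 in cerebellum (SE 0.325, edgeR adjusted p 0.222).

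Lymphocyte and dendritic cell markers were near the detection limit where they are most specific. Cd3d and Cd3g were at 0.0828 CPM or less in every library, Ms4a1 at 0.0552 CPM or less and Xcr1 at 0.153 CPM or less. The T cell list summed to 2.90 to 4.02 CPM in control and 4.97 to 5.60 CPM in KO cerebella, and to 29.2 to 63.1 CPM in control and 21.6 to 23.7 CPM in KO cortices, where the KO mice were below every control. Of its 10 genes 2 could be tested in cerebellum and 3 in cortex, and 0 were called. Cd4, which T cells share with some myeloid cells, was at 13.6, 32.9 and 13.4 CPM in control and at 6.02 and 2.83 CPM in KO cortices (log2 difference -2.15, edgeR adjusted p 0.754). The B cell list summed to 3.56 to 4.63 CPM in control and 8.77 to 13.9 CPM in KO cerebella, where 1 of 2 genes tested, Ighm, rose (log2 1.47, edgeR adjusted p 0.0275) and held the call in 1 of the 5 fits that left out a library. In the cortices it summed to 31.4 to 76.0 CPM and 38.9 to 40.5 CPM, with 0 of 1 called. The dendritic cell list summed to 103 to 121 CPM in control and 85.9 to 89.3 CPM in KO cerebella, most of it from Zbtb46 and Flt3, with 0 of 3 genes tested called. Of these 3 genes, 2 (Zbtb46 and Flt3) were lower in KO cerebella and 1, Itgax, was higher. Itgax was at 0.420, 0.139 and 0.712 CPM in control and at 0.878 and 1.45 CPM in KO cerebella, so the sum does not stand for every marker. In the cortices the sum of the dendritic cell list went the other way, at 15.1 to 21.2 CPM in control and 21.97 to 23.02 CPM in KO mice, with 0 of 2 called. The list of monocytes and neutrophils summed to 1.12 to 2.31 CPM and 4.50 to 8.73 CPM in the cerebella and to 0.368 to 0.898 CPM and 1.60 to 3.40 CPM in the cortices, apart in both tissues. Of its 6 genes 3 could be tested in cerebellum and 1 in cortex, and edgeR called 0, while DESeq2 called S100a8 higher in KO cerebella (adjusted p 0.0123, edgeR adjusted p 0.0810).

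Purkinje cell markers, all 7 of which fell in KO cerebella, summed to 7853 to 9644 CPM in controls and 3918 to 4014 CPM in KO mice. H2-D1 was lower in the same libraries, and a link between these differences was not tested. Endothelial markers, with 0 of 8 called in either tissue, summed to 123 to 139 CPM in control and 139.8 to 149.6 CPM in KO cerebella, and to 74.6 to 157 CPM and 149.8 to 161 CPM in the cortices. Fibroblast markers (0 of 8 called) summed to 111 to 276 CPM and 222 to 336 CPM in the cerebella and to 69.5 to 147 CPM and 129 to 156 CPM in the cortices. Astrocyte markers, of which 3 of 6 (Gfap, Gja1 and Aqp4) rose in KO cerebella, summed to 2855 to 3046 CPM in control and 3459.9 to 3607 CPM in KO cerebella, and to 2666 to 3790 CPM and 3955 to 4250 CPM in the cortices (0 of 6 called). Granule cell markers had 0 of 7 called in cerebellum, and of the cortical excitatory neuron markers Camk2a was called lower there. Oligodendrocyte and red blood cell markers had 0 called in each tissue, and their sums overlapped between KO and control in both.

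**Figure D5:**
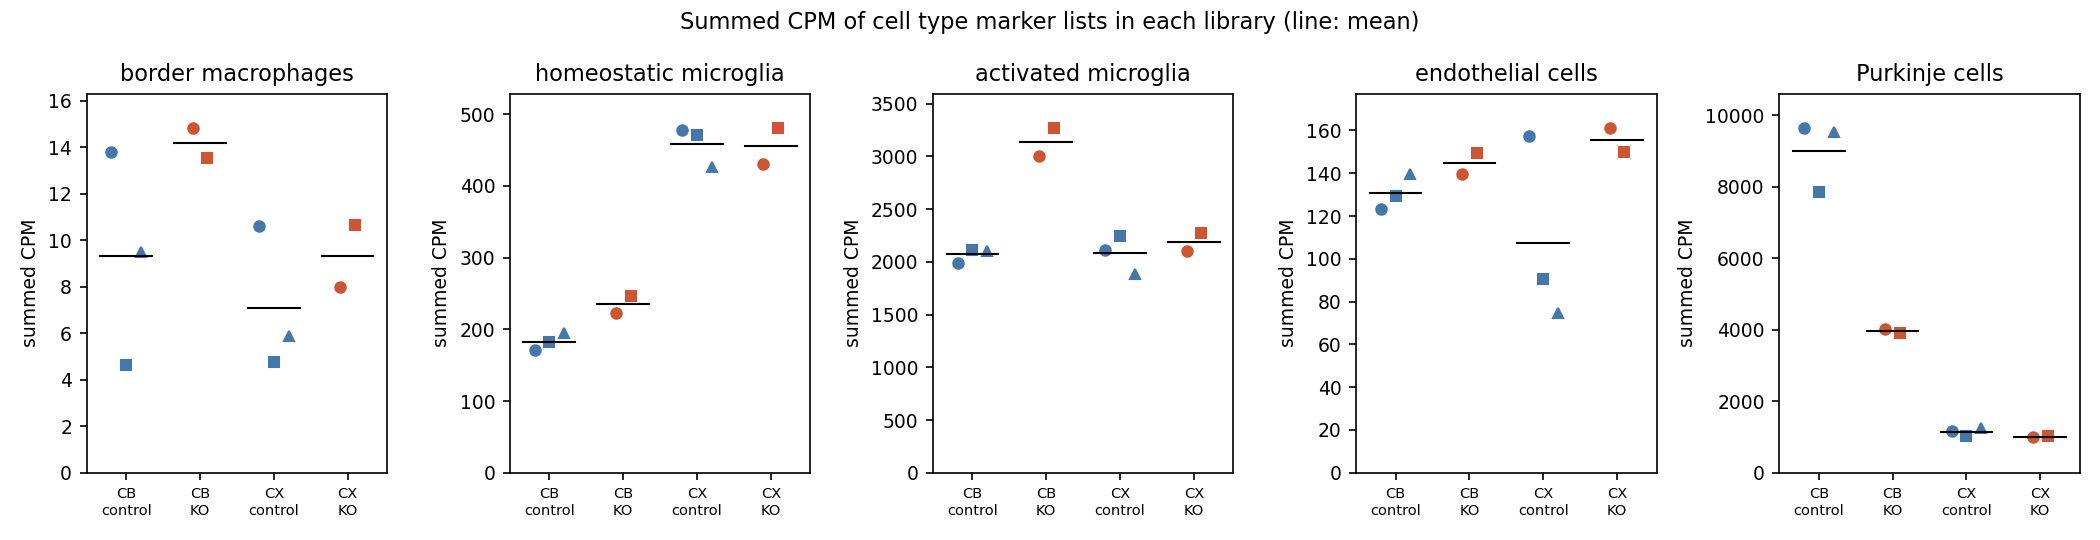
Summed CPM of the marker genes of 5 cell types in each library, with a line at the mean. Activated and homeostatic microglia markers are higher and Purkinje cell markers lower in both KO cerebella than in the 3 controls, border macrophage markers are lowest in control 2 in both tissues, and the cortex groups overlap for both microglia lists.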

How the data were processed

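Strand-specific libraries were sequenced from whole tissue. The authors deposited a table of raw counts for each library, with read pairs summed per gene, made with STAR on GRCm38 and featureCounts (Subread 2.0.1, per the submitters' processing notes) over exons, without strand and without multi-mapping reads. Pairs over more than 1 gene went to every such gene. Entries without a mouse gene identifier (26345 of 81881, 0.16% to 0.926% of counts) were left out. Names came from GENCODE M21.

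KO and control libraries of a tissue, control tissues, and the difference of the KO effects were compared with the quasi-likelihood test of edgeR 4.0.16 (R 4.3.3; TMM; filterByExpr, count minimum 10), with Benjamini-Hochberg adjustment over all genes. A call needed an adjusted p under 0.05 and, except for the difference, an absolute log2 fold change over 0.5. The scripts were tested on simulated data. For KO against control within a tissue, p-values measure the spread between separate mice. The main fits of control tissues and of the difference treated the libraries of a mouse as separate. Only the fits with the animal as a block took the pairing into account there. The precision rests on 3 control and 2 KO mice, and class II counts were often under 50.

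The animal numbers in the labels tie the tissues of a mouse. Deviations of a mouse's tissues from their group means correlated with r from 0.164 to 0.370 over 20614 genes. The 2 KO mice have the same r (0.326), since deviations of 2 mice from their mean mirror each other. The block for the animal rests on the labels and not on these r values. DESeq2 1.42.0, RLE scaling, no filter, 1 fit of all libraries, Het controls alone, blocks and leaving out libraries were alternatives. Without both libraries of control 2 was chosen after seeing the data.

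The genes, lists and motifs were chosen with earlier results of these data known. Named were the 10 genes, pathway genes that passed, up to 3 per list with the highest level per exon length over all libraries, called markers, defining markers at 0 in a group, and the 5 genes most like each profile among genes of at least 1 CPM in both tissues. Others (Ciita, Mrc1, Zbtb46, Flt3, Itgax, Cd4, S100a8, Axl, Cst7, Lpl, H2-Q6, H2-Q7, H2-Ea-ps, Ifng, Tap2, Psmb10, March1) were named after their values were seen. Log2 CPM used a prior count of 2.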

Additional observations from a re-analysis of the deposited data

Results flagged for a closer look

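H2-D1 was singled out because its KO difference was found to differ between the tissues in the fit with the animal as a block. Both KO cerebella were below and both KO cortices above all controls of their tissue, and the difference between the tissues was -0.58 on the log2 scale (SE 0.105, edgeR adjusted p 0.0386) when the tissues of each mouse were paired by a block. Without the block it was -0.58 with an adjusted p of 0.126. Over the fits that left out 1 library the adjusted p lay between 0.0484 (without cortex control 2) and 0.528, and it was 0.0138 without both libraries of control 2. The groups held 2 or 3 libraries, too few for a test of single libraries within a group.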

How the results depend on the processing

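With 2 KO mice and low class II counts, differences under about 1 log2 unit in class II genes could not be settled, and the direction of the 4 class II differences was kept in both KO comparisons under every alternative run. With no filter on low counts, 842 genes were called in cerebellum, 380 in cortex and 599 for the difference between tissues, in fits with infinite prior degrees of freedom. The cerebellum count of 302 was 133 to 400 without single libraries, lowest without control 1, with 179 without control 3 and 180 without KO 1. The cortex count of 0 was 49 with DESeq2 and 0 to 98 without single libraries, with 98 without control 2 and 7 without KO 2. The count of 21 for the difference was 219 with DESeq2, 0 with Het controls alone, 198 without both libraries of control 2 and 3 to 117 without single libraries, where cortex KO 2 gave the lowest and cortex control 2 the highest.

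With a block for the replicate number, which in these mice also pairs sex for numbers 1 and 2 (both mice numbered 1 female and both numbered 2 male by Xist), and which the labels tie to no shared animal, 181 genes were called in cerebellum and 3 in cortex. H2-Eb1 then had a log2 difference of 1.43 (edgeR adjusted p 0.113), Tap1 changed sign to 0.00278 and Nlrc5 to 0.10. With the animal as a block, 128 genes passed the difference between tissues. Over all 6 class I and 4 class II members, the ratio of the classes was 48.5 and 18.6 in control and KO cerebellum and 84.1 and 31.8 in cortex.

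Other changes of sign concerned values near 0 that were not called. For the difference between tissues, H2-K1 was -0.0140 with DESeq2, -0.0119 with RLE scaling and -0.10 without both libraries of control 2. Tap1 was -0.00578, -0.00350 and -0.15 in the same fits. With Het controls alone B2m was 0.00737 and H2-Eb1 0.28. Without single libraries, the KO difference ranged from -0.0273 to 0.0654 for B2m and from -0.50 to 0.30 for Nlrc5 in cerebellum and from -0.46 to 0.14 for Tap1 in cortex. The difference between tissues ranged from -0.0838 to 0.10 for H2-K1, from -0.27 to 0.35 for Tap1, from -1.32 to 0.23 for Nlrc5, from -1.24 to 0.11 for H2-Aa, from -3.23 to 0.0539 for H2-Ab1, from -0.69 to 0.36 for H2-Eb1 and from -0.56 to 1.1001 for Cd74.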
